A study of Mus musculus with 24 samples.

Results

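The Polycomb genes examined here were the Polycomb-like gene *Phf1* and the ring finger gene *Ring1*, both on proximal Chr 17, together with 8 genes whose proteins work in the same complexes, namely *Mtf2*, *Phf19*, *Rnf2*, *Bmi1*, *Ezh1*, *Ezh2*, *Eed* and *Suz12*. *Phf1* and *Ring1* were chosen by their difference between the genotypes in these libraries, so that their values between genotypes are given as a description without a test. The partners were chosen by protein partnership. Of the 10 genes, 9 were among the 13998 genes of the table, and *Phf19* was not analysed here. Of these 9, *Phf1* and *Ring1* lie in the CAST segment, and the other 7 lie on other chromosomes.

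Expression was measured in the hypothalamus of 24 male F2 mice from a cross between a B6.CAST-17.1 subcongenic strain and C57BL/6J, with 1 SAGE-Seq library for each mouse. Of these, 12 were homozygous for CAST/EiJ alleles (*cast/cast*) and 12 for C57BL/6J alleles (*b6/b6*) over the proximal Chr 17 segment, and all carried C57BL/6J alleles elsewhere. The mice began the diet test at 10 to 16 weeks of age, chose between a carbohydrate/protein (C/P) and a fat/protein diet, and were taken from opposite 25% tails of C/P intake, high for *cast/cast* and low for *b6/b6*. Genotype and intake therefore cannot be told apart between the groups. Tissue was taken about 48 h after the diets were offered again, and after a 4 h fast.

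Polycomb proteins keep developmental genes silent through 2 enzymes that mark histones. Polycomb repressive complex 2 (PRC2) methylates histone H3 at H3K27 through Ezh1 or Ezh2, which need Eed and Suz12 for activity, and the Polycomb-like proteins Phf1, Mtf2 and Phf19 join PRC2 and help it bind chromatin. Polycomb repressive complex 1 (PRC1) ubiquitinates histone H2A through Ring1 or its paralog Rnf2, each paired with a Pcgf protein such as Bmi1. In the hypothalamus, Eed is known for its place among the repressors of *Kiss1* before puberty.

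A SAGE library holds a 27-base tag that begins at the CATG nearest to the 3′ end of each transcript. If only that tag was counted, a count stands for transcripts and needs no correction for length. Levels of different genes are compared below on this premise, which was not tested. The tags expected for the genes on which the results turn were read from GENCODE M21 transcripts of GRCm38 and are shown because the counts below rest on tags of this kind. For *Phf1* the last CATG with a full tag is given. Capitals mark the CATG.
Phf1: CATGactcctaatgccccccctcattt
Mtf2: CATGgctctgatgttcagtttgtattt
Ring1: CATGgggaccacagggtgtctctgtgt
Rnf2: CATGttcgctgaatataactcttgttt
Eed: CATGaggttttctatggatttctggca
Suz12: CATGtaagatgataaagcatttgaatg

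The tag of *Phf1* lies at chr17:26937728-26937754 on the plus strand and that of *Ring1* at chr17:34021333-34021359 on the minus strand, both in the 3′ UTR. The tags of *Mtf2* (chr5:108108919-108108945, plus), *Rnf2* (chr1:151469597-151469623, minus) and *Suz12* (chr11:80033972-80033998, plus) were also in 3′ UTRs, and that of *Eed* (chr7:89956259-89956285, minus) was in coding sequence. Each of these tags occurred in the transcripts of 1 gene. The GENCODE transcript of *Phf1* has a further CATG at 26937897, which is 12 bases from its end and lies past the end of the gene in the deposited table at 26937890. Tags of both genotypes were aligned to C57BL/6J sequence. The CAST/EiJ sequence of these tags was not analysed here, and which tags the software counted for a gene is not given in the sources used here.

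Values are tag hits divided by the size factor of the library, called normalized counts below, and a log2 fold change is the *cast/cast* mean less the *b6/b6* mean of log2(normalized count + 1). Between 7754202 and 13082873 tag hits fell on genes in each library, and 3 tag hits were taken as the floor of detection, which covers counting error only. A gene was called when its unadjusted limma *P* was 0.01 or less and its means differed by 1.5-fold or more. By this rule 1.49% of all 13998 genes were called, and outside the CAST segment, where both genotypes carry the same alleles, 0.713% of 13317 genes. Within the segment 18.6% of 430 genes were called lower and 5.81% higher in *cast/cast* mice. All 12 hypothalamus marker genes were detected, and their sums per library overlapped, with 11659 to 29333 for *b6/b6* and 6373 to 33250 for *cast/cast* mice. Of the 24 libraries, 8 stood apart from the others in their correlation across genes, 4 of each genotype, and *b6/b6* mice 6 and 12 stood farthest among the *b6/b6* mice.

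Tags of *Phf1* were plentiful in every *b6/b6* mouse and few in every *cast/cast* mouse. Whether fewer tags mean less RNA was not tested, since the CAST/EiJ sequence of the tag was not analysed here. In *b6/b6* mice the lowest normalized count was 157.7, the median 311.4 and the highest 486.2. In *cast/cast* mice these values were 5.38, 12.6 and 33.0. The genotypes did not overlap, and the highest *cast/cast* mouse was far below the lowest *b6/b6* mouse. The means were 306 ± 110 (SD, n = 12) and 14.5 ± 8.26 (n = 12), a 21.1-fold lower level in *cast/cast* mice and a log2 fold change of -4.39 (standard error 0.26). Behind these values stood 145 to 504 tag hits in a *b6/b6* mouse and 5 to 36 in a *cast/cast* mouse, all above the floor. Among the 430 genes tested in the segment, 10.2% did not overlap between the 12 and 12 mice. Since *Phf1* was selected on this contrast, nothing is read from that share.

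Tags of *Ring1* were abundant in both genotypes, and their higher count with CAST alleles only just reached the ratio of the threshold. Whether more tags mean more RNA was not tested. Normalized counts in *b6/b6* mice were 945.1 at the lowest, 1679 at the median and 2176 at the highest, and in *cast/cast* mice 1862, 2354 and 4312. The genotypes overlapped, with 9 *cast/cast* mice above every *b6/b6* mouse and the other 3 within the *b6/b6* range. The log2 fold change was 0.62 (standard error 0.15), and the ratio of means was 1.53, just inside the threshold, where the next member in order of ratio, *Eed*, was at 1.25. With every library scaled to one total, the ratio of *Ring1* was 1.47, below the threshold.

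Single mice moved the *Ring1* ratio to either side of the threshold. Without *b6/b6* mouse 6 the ratio was 1.49, without *b6/b6* mouse 12 it was 1.48, without *cast/cast* mouse 3 it was 1.498, and without *cast/cast* mouse 12 it was 1.44. Without both of these *b6/b6* mice the ratio was 1.42. With 2 principal components as covariates the log2 fold change was 0.42, while the ratio of means, which a covariate does not change, stayed at 1.53. The log2 fold change stayed between 0.54 and 0.66 over the 24 fits that left out 1 mouse. That of *Phf1* lay between -4.51 and -4.29 in the same fits. These values use the contrast on which both genes were chosen and lend it no support. The labels give a study number for each mouse, with medians of 269.5 for *b6/b6* and 120.5 for *cast/cast* mice, and a gap divides them into 15 to 121 (5 *b6/b6*, 7 *cast/cast*) and 197 to 364 (7 *b6/b6*, 5 *cast/cast*). Among the lower numbers the *Ring1* means of *b6/b6* and *cast/cast* mice were 1411 and 2338, and among the higher numbers 1824 and 2809. *Phf1* averaged 297 and 16.5 among the lower and 312 and 11.7 among the higher numbers. The direction of both genes was thus the same within each set of study numbers.

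**Figure D1:**
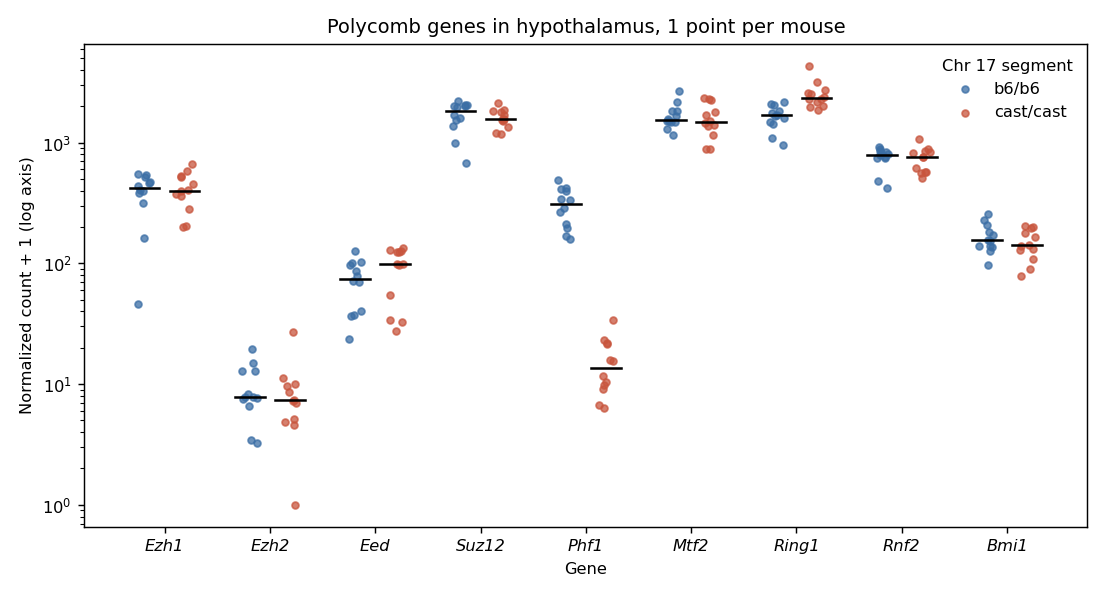
Normalized count plus 1 (log axis) of the 9 Polycomb genes, with 1 point for each of the 12 *b6/b6* (blue) and 12 *cast/cast* (red) mice and a bar at the median. *Phf1* is the gene whose genotypes do not overlap, *Ring1* is shifted upward in *cast/cast* mice with 3 mice inside the *b6/b6* range, and the other genes overlap.

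None of the 7 partners in the table was called by limma, beside 0.713% of all genes outside the segment. At an unadjusted limma *P* under 0.05 there were 0 of 7, beside 950 of 13317 genes outside the segment. By edgeR and DESeq2 0 were called, beside 391 and 395 of all 13998 genes. With shares this low, a count of 0 among 7 says nothing about the partners, and their values follow as a description. *Mtf2*, the Polycomb-like paralog of *Phf1*, ranged from 1153 to 2655 in *b6/b6* mice with a median of 1531, and from 885.8 to 2357 in *cast/cast* mice with a median of 1474. Its log2 fold change was -0.12, with a 95% interval from -0.47 to 0.23 (limma *P* = 0.486, Benjamini-Hochberg adjusted over all genes 0.849). *Rnf2*, the paralog of *Ring1*, ranged from 423.1 to 922.4 in *b6/b6* mice with a median of 793.7, and from 508.0 to 1079 in *cast/cast* mice with a median of 756.7. The log2 fold change of *Rnf2* was -0.04, with an interval from -0.34 to 0.26 (limma *P* = 0.787, adjusted 0.950). Both paralogs thus covered overlapping ranges in the genotypes, while the intervals allow changes of moderate size.

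*Bmi1*, the Pcgf partner of Ring1 and Rnf2, had medians of 153.6 and 140.4 in *b6/b6* and *cast/cast* mice, within ranges of 94.97 to 254.5 and 77.6 to 202.1. Its log2 fold change was -0.19 (interval -0.56 to 0.17, limma *P* = 0.288, adjusted 0.755). *Suz12*, a core subunit of PRC2, had medians of 1829 and 1565 in ranges of 676.5 to 2209 and 1166 to 2132, and its log2 fold change of -0.02 (interval -0.36 to 0.32, limma *P* = 0.905, adjusted 0.981) was the one nearest to 0 among the members. *Eed*, the subunit that reads the mark PRC2 makes, had medians of 73.8 and 98.2 in ranges of 22.8 to 125.4 and 26.7 to 132.3, and a log2 fold change of 0.27 (interval -0.38 to 0.92, limma *P* = 0.390, adjusted 0.805). The 95% intervals use 22 residual degrees of freedom.

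The catalytic subunits of PRC2 differed in level and not detectably between genotypes. *Ezh1*, the form known from cells that no longer divide, ranged from 45.2 to 546.2 in *b6/b6* mice with a median of 420.5, and from 199.1 to 662.9 in *cast/cast* mice with a median of 399.4, for a log2 fold change of 0.20 (interval -0.44 to 0.85, limma *P* = 0.520, adjusted 0.864). *Ezh2*, the form known from dividing cells, was near the floor, with medians of 6.78 and 6.32 in ranges of 2.26 to 18.5 and 0 to 26.1, and 2 mice of each genotype had 3 tag hits or fewer. One of these, a *cast/cast* mouse, had 0 tag hits, which allows up to 3. The *Ezh2* log2 fold change was -0.27 (interval -1.07 to 0.53, limma *P* = 0.490, adjusted 0.851), so that the counts allow a change of either direction inside that interval. Of the summed tag hits of both genes, *Ezh1* took 95.2% to 99.4% in the *b6/b6* libraries and 95.7% to 100% in the *cast/cast* libraries.

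Ratios within a library do not depend on how libraries are scaled. *Phf1* gave 15.6% ± 4.97 (SD, n = 12) of the summed *Phf1* and *Mtf2* tag hits of *b6/b6* mice, from 6.79% to 24.4%. In *cast/cast* mice the share was 1.099% ± 0.936 (n = 12), from 0.254% to 3.59%. *Ring1* exceeded *Rnf2* in every mouse, by 1.73 to 2.82 times in *b6/b6* mice with a median of 2.23, and by 2.14 to 7.56 times in *cast/cast* mice with a median of 3.15. In this ratio 8 of 12 *cast/cast* mice exceeded all 12 *b6/b6* mice. The normalized counts of *Phf1* and *Mtf2* together averaged 1981 ± 422 with C57BL/6J alleles and 1597 ± 503 with CAST alleles, and those of *Ring1* and *Rnf2* together 2405 ± 507 and 3268 ± 602 (SD, n = 12 each). These ratios and sums contain the genes that were chosen on the contrast and are given as a description.

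**Figure D2:**
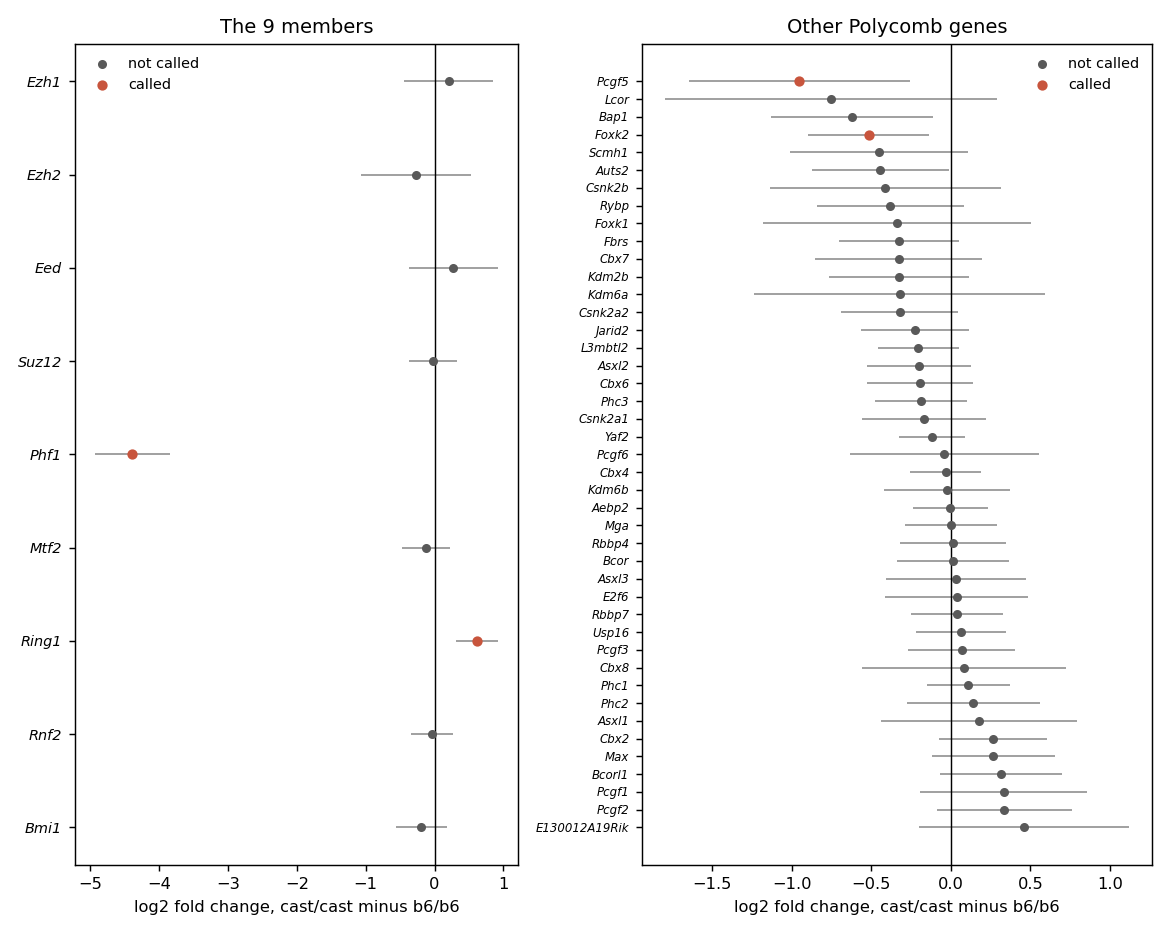
Log2 fold change (*cast/cast* minus *b6/b6*) with its 95% interval for the 9 members (left) and for 43 other genes of the Polycomb complexes and of the enzymes that remove their marks (right), with called genes in red. *Phf1* stands at -4.39 and *Ring1* at 0.62, and on the right *Pcgf5* and *Foxk2* are called, both lower in *cast/cast* mice.

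The order of the members by level was described within each genotype, by an exact paired permutation test (sign flips, two-sided) for each pair next to each other, adjusted by Benjamini-Hochberg over the pairs of a genotype. In *b6/b6* mice the means ran from *Suz12* (1678), *Mtf2* (1675) and *Ring1* (1652) through *Rnf2* (753), *Ezh1* (391), *Phf1* (306) and *Bmi1* (165) to *Eed* (71.4) and *Ezh2* (8.36). *Suz12*, *Mtf2* and *Ring1* did not differ beyond their spread (adjusted exact *P* = 0.752 for each pair), and neither did *Ezh1* and *Phf1* (adjusted exact *P* = 0.591), whereas every other step did. In *cast/cast* mice *Ring1* (2534) came first and *Phf1* (14.5) fell to the place above *Ezh2* (7.65), and the 7 partners kept the order they had in *b6/b6* mice. There *Suz12* and *Mtf2* were the one pair that did not differ (adjusted exact *P* = 0.375). Of the 16 steps, 12 passed at an adjusted *P* of 0.05. Where *Phf1* and *Ring1* stand in *cast/cast* mice follows from the values on which they were chosen.

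*Eed* and *Suz12* each took separate ranges in 2 sets of libraries that held mice of both genotypes. The first principal component of 9626 genes outside the segment held 39.4% of the variance among libraries, and on it 10 libraries (6 *b6/b6*, 4 *cast/cast*) scored 0.0579 or more and 14 (6 *b6/b6*, 8 *cast/cast*) -0.0652 or less, with an arbitrary sign. *Eed* was between 22.8 and 70.0 in the former and between 77.7 and 132.3 in the latter. *Suz12* was between 1797 and 2209 in the former and between 676.5 and 1699 in the latter. Neither gene overlapped between the sets of libraries, and both are among the genes from which the component was made, so that this is a description. Within a genotype, the correlation of *Eed* with *Suz12* did not pass by *r* (adjusted permutation *P* = 0.0630 for *b6/b6* and 0.101 for *cast/cast* mice), and by rho it passed in *b6/b6* mice (adjusted 0.00740) and not in *cast/cast* mice (adjusted 0.232). For *b6/b6* mice *r* was -0.65 and rho was -0.87. For *cast/cast* mice *r* was -0.60 and rho was -0.50. Without *b6/b6* mice 6 and 12, *r* was -0.86 and passed (adjusted permutation *P* = 0.0182, n = 10). On residuals from the first principal component, *r* was 0.22 for *b6/b6* mice (adjusted permutation *P* = 0.669). For *cast/cast* mice it was then 0.30 (adjusted permutation *P* = 0.541), and neither passed. Between the 2 sets of libraries, *Mtf2* ranged from 1505 to 2655 against 885.8 to 1701. *Rnf2* ranged from 742.8 to 1079 against 423.1 to 856.8, and each gene had a small overlap.

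Of the 13317 genes outside the segment, 4.49% had no overlap between these sets of libraries. The sums of some marker lists were shifted between these sets, and those of neurons and thalamus were similar in both. The 4 microglia markers summed to between 2095 and 5151 in the 10 libraries and to between 1389 and 2420 in the 14, and the 4 astrocyte markers to between 6124 and 11463 and to between 10502 and 15663. The hypothalamus markers summed to between 6373 and 20296 and to between 14095 and 33250, and the 4 oligodendrocyte markers to between 11402 and 23310 and to between 19229 and 42313. The neuron markers summed to between 22960 and 39564 in the 10 libraries and to between 23899 and 37753 in the 14. For the thalamus markers the sums were between 2935 and 8847 and between 2801 and 8460. For each of these lists the ranges overlapped. Their part in the levels of *Eed* and *Suz12* was not tested, and in whole tissue fewer cells of a type and less RNA per cell cannot be told apart.

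**Figure D3:**
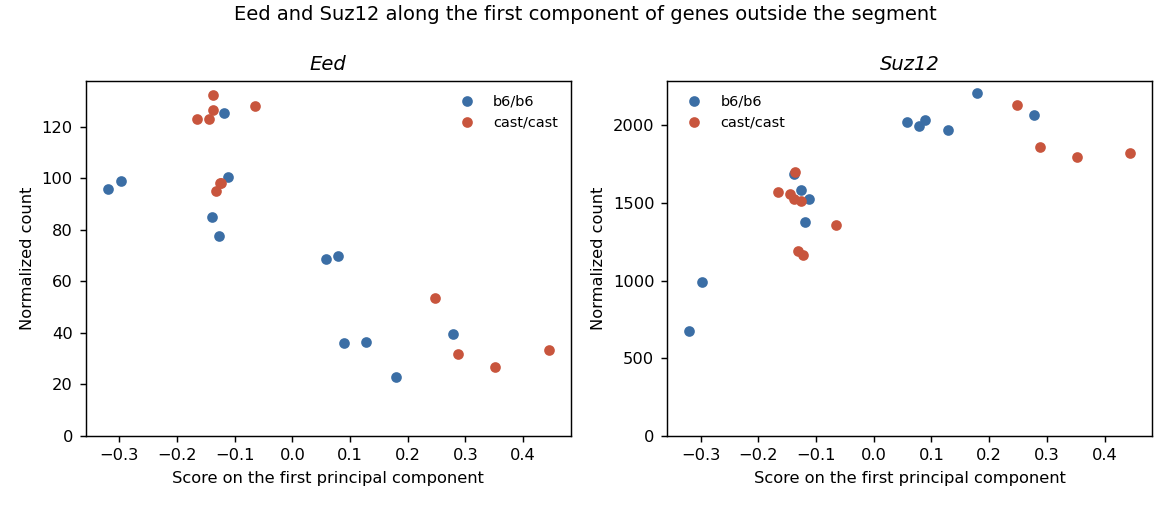
Normalized counts of *Eed* (left) and *Suz12* (right) against the score of each library on the first principal component of genes outside the segment (no unit, sign arbitrary), with *b6/b6* mice in blue and *cast/cast* mice in red. The 10 libraries with positive scores hold *Eed* at 70.0 or less and *Suz12* at 1797 or more, and both genotypes occur on each side.

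Pairs of genes of the same complex were also correlated across the 12 mice of a genotype (log2 scale, permutation tests with 100000 resamples, two-sided, Benjamini-Hochberg over 20 correlations). By *r*, 5 of the 20 passed at an adjusted *P* of 0.05. The share that passes among pairs of unrelated genes was not computed, and the first principal component held 39.4% of the variance among libraries. The count is therefore a description and not a trait of these complexes. *Ring1* and *Bmi1* varied inversely in both genotypes, with *r* = -0.75 in *b6/b6* mice (permutation *P* = 0.00548, adjusted 0.0243) and *r* = -0.83 in *cast/cast* mice (permutation *P* = 0.0006, adjusted 0.0120). By rank, rho was -0.62 (permutation *P* = 0.0340, adjusted 0.101) and -0.75 (permutation *P* = 0.00719, adjusted 0.0479), of which the latter passed. Leaving out the 2 mice farthest from the median of *Ring1* gave *r* = -0.38 and -0.54, so that the relation rests in part on those mice. On residuals from the first principal component, *Ring1* and *Bmi1* had *r* = -0.83 in *b6/b6* mice (permutation *P* = 0.00081, adjusted 0.0162). In *cast/cast* mice *r* was then -0.78 (permutation *P* = 0.00302, adjusted 0.0302). Both passed by *r*, and neither passed by rho (adjusted permutation *P* = 0.0728 and 0.228). *Rnf2* and *Bmi1* varied together in *cast/cast* mice, with *r* = 0.76 (permutation *P* = 0.00476, adjusted 0.0243) and rho = 0.72 (permutation *P* = 0.0103, adjusted 0.0517), and *r* = 0.81 without the 2 mice farthest from the median. In *b6/b6* mice the same pair had *r* = -0.57 (permutation *P* = 0.0578, adjusted 0.113) and rho = -0.16 (permutation *P* = 0.619, adjusted 0.773). On residuals from the first principal component described above, *r* in *cast/cast* mice was 0.60 (permutation *P* = 0.0393, adjusted 0.128) and did not pass. The difference between genotypes was not tested.

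*Ring1* and *Rnf2* had *r* = 0.86 in *b6/b6* mice (permutation *P* = 0.0028, adjusted 0.0243), rho = 0.58 (permutation *P* = 0.0518, adjusted 0.130), and *r* = -0.54 in *cast/cast* mice (permutation *P* = 0.0678, adjusted 0.113), rho = -0.62 (permutation *P* = 0.0354, adjusted 0.101). The difference between genotypes was not tested. On residuals from the first principal component, *r* in *b6/b6* mice was 0.75 and passed (permutation *P* = 0.00535, adjusted 0.0357), while rho was 0.70 and did not (permutation *P* = 0.0143, adjusted 0.0934). Without such residuals the relation in *b6/b6* mice rested on mice 6 and 12, without which it was *r* = 0.24. In those mice, which were the lowest of the *b6/b6* mice in *Phf1*, *Mtf2*, *Ring1*, *Rnf2* and *Suz12*, the 3 blood markers in the table summed to 4999 and 1704 against a *b6/b6* median of 526.6, and the 4 endothelial markers to 755 and 876 against a median of 215.3. The part of these markers in the levels was not tested. The fifth relation was *Ezh1* with *Eed* in *cast/cast* mice, with *r* = -0.75 (permutation *P* = 0.00608, adjusted 0.0243) and rho = -0.67 (permutation *P* = 0.0212, adjusted 0.0848). On residuals from the first principal component *r* was -0.30 (permutation *P* = 0.351, adjusted 0.541) and did not pass. In *b6/b6* mice the pair had *r* = 0.11 (permutation *P* = 0.784, adjusted 0.871). Without the 8 libraries that stood apart none of the 20 passed at an adjusted *P* of 0.05, with 8 mice of each genotype. In *cast/cast* mice *Ring1* and *Bmi1* then had *r* = -0.81, and *Rnf2* and *Bmi1* *r* = 0.86 (adjusted permutation *P* = 0.0575 each).

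Counts of *Phf1* varied with C/P intake among *b6/b6* mice, in a relation that did not pass in every setting. The share of all genes that vary with intake to this degree was not computed, so the relation is not shown to be particular to *Phf1*. Across these 12 mice, which ate 27.4 to 41.0 kcal of the C/P diet in 10 d, *Phf1* was higher where intake was higher, with *r* = 0.79 (permutation *P* = 0.00184, adjusted over 18 correlations 0.0331) and rho = 0.81 (permutation *P* = 0.00252, adjusted 0.0454). Leaving out the 2 mice farthest from the median intake gave *r* = 0.69. Among the 7 *b6/b6* mice with the higher study numbers *r* was 0.84 (permutation *P* = 0.0315), and the 5 with the lower numbers were too few for a value. Without *b6/b6* mice 6 and 12, *r* was 0.72 and no longer passed (permutation *P* = 0.0213, adjusted 0.384, n = 10). Without the 4 *b6/b6* libraries that stood apart, *r* was 0.60 (permutation *P* = 0.111, n = 8). With every library scaled to one total, *Phf1* passed by *r* (0.76, adjusted permutation *P* = 0.0456) and not by rho (0.80, adjusted permutation *P* = 0.0538). With total kcal in place of C/P kcal, *r* was 0.14 (permutation *P* = 0.667).

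In *cast/cast* mice, where *Phf1* counts were low, *r* with C/P intake was -0.01 (permutation *P* = 0.973) and rho was -0.19 (permutation *P* = 0.563), and the difference between the genotypes was not tested. The mice of each genotype came from 1 tail of intake, and *cast/cast* mice ate 77.8 to 106.6 kcal. *Bmi1* had *r* = -0.74 in *b6/b6* mice (permutation *P* = 0.00607) and rho = -0.70 (permutation *P* = 0.0151), and missed the threshold after adjustment (0.0546 and 0.136). *Ring1* also missed it, with *r* = 0.69 (permutation *P* = 0.0132, adjusted 0.0794) and rho = 0.48 (permutation *P* = 0.114, adjusted 0.601). With every library scaled to one total both passed by *r*, with an adjusted permutation *P* of 0.0456 each, and neither passed by rho.

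**Figure D4:**
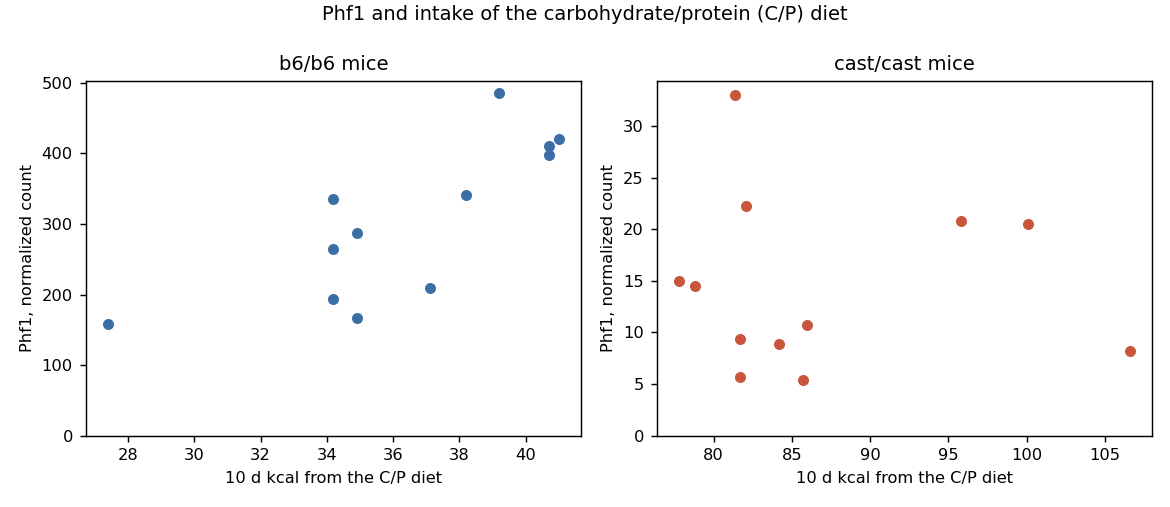
Normalized count of *Phf1* against the kcal eaten from the C/P diet in 10 d, with 1 point per mouse, for *b6/b6* (left) and *cast/cast* (right) mice, the vertical axes differing in scale. In *b6/b6* mice the points rise together (*r* = 0.79), and in *cast/cast* mice, all at 33.0 normalized counts or less, *r* was -0.01.

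The genes around *Phf1* and *Ring1* showed differences in tag counts, of either direction and of very unequal size. The CAST/EiJ sequence of their tags was not analysed here, so that whether these are differences in RNA was not tested. Distances are between the lower coordinates of the genes. Of 6 tested genes within 100 kb of *Phf1* (chr17:26933127-26937890), 1 was called lower and none higher in *cast/cast* mice, beside 18.6% and 5.81% over the segment. The count is near that background. The gene was *Kifc5b*, a kinesin gene that lies at -16.04 kb, to the left of *Phf1*, with 24.3 ± 7.74 normalized counts where mice carried C57BL/6J alleles and 4.28 ± 1.75 where they carried CAST alleles (SD, n = 12 each), a log2 fold change of -2.25 (standard error 0.23). Its *cast/cast* values rest on 2 to 8 tag hits per mouse, with 4 of 12 mice at or under the floor, so that the size of the difference is limited by depth. *Cuta* faces *Phf1* from the opposite strand, with 81 bases between the 3′ ends of the genes in the table, and averaged 1401 ± 490 and 1767 ± 433 (log2 fold change 0.37, limma *P* = 0.0332, adjusted 0.6002), which did not pass.

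Around *Ring1* (chr17:34020792-34024680), 5 of 14 tested genes were called lower and 1 higher, beside 18.6% and 5.81% over the segment. *AA388235* had at most 2 tag hits in any *cast/cast* mouse and averaged 54.9 ± 16.7 normalized counts in *b6/b6* mice, at least 18.3-fold lower against the floor of 3 tag hits per library. *Wdr46*, a gene of ribosome biogenesis, fell from 270.3 to 11.3 (log2 fold change -4.47), and *Rxrb*, the retinoid X receptor beta gene 11.02 kb to the right of *Ring1*, from 969 to 209 (log2 fold change -2.21). The class I histocompatibility genes *H2-K2* (63.9 to 3.49) and *H2-K1* (129.8 to 57.6) were also called lower. For *H2-K2*, *b6/b6* mouse 12 had 1 tag hit and 7 of 12 *cast/cast* mice were at or under the floor. The counts of both genes are uncertain because near-identical relatives can share tags.

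*Vps52*, a gene of retrograde transport to the Golgi, was the neighbour called higher, with means of 237 ± 64.5 for *b6/b6* and 367 ± 99.5 for *cast/cast* mice (log2 fold change 0.63, limma *P* = 0.000772, adjusted 0.116). The nearest uncalled neighbours were *H2-Ke6*, 5.24 kb away, with a log2 fold change of 0.28 (limma *P* = 0.183, adjusted 0.693), and the zinc transporter gene *Slc39a7*, 7.47 kb away, with 0.13 (limma *P* = 0.546, adjusted 0.873).

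**Figure D5:**
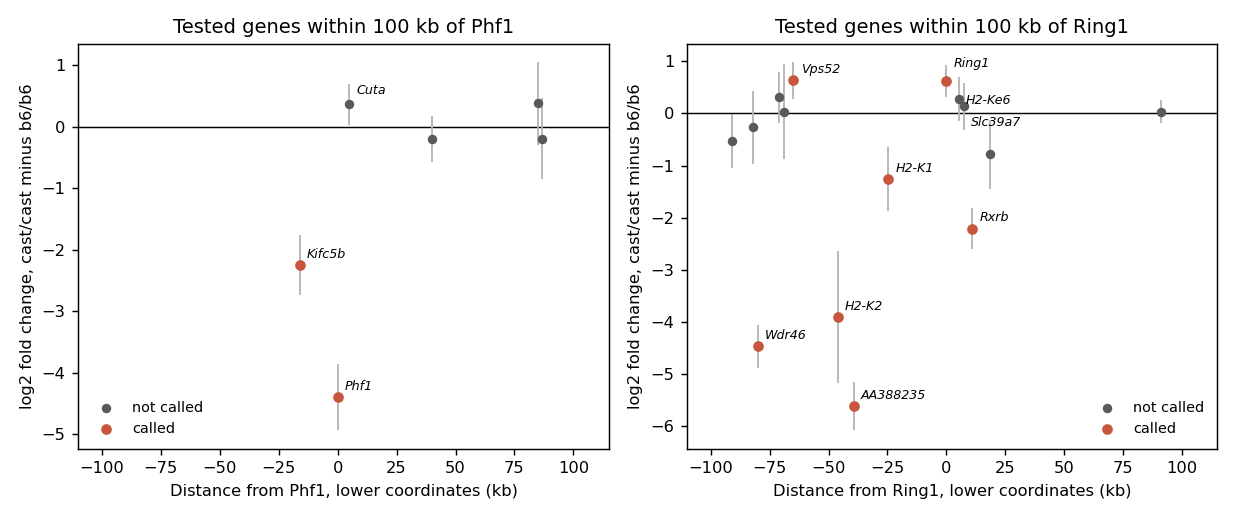
Log2 fold change (*cast/cast* minus *b6/b6*) with its 95% interval of the tested genes within 100 kb of *Phf1* (left) and *Ring1* (right), against distance in kb between the lower coordinates, with called genes in red and 1 gene that was not called left out. *Phf1* and *Kifc5b* are low beside *Cuta* at 0.37, and *Ring1* and *Vps52* are the called genes above 0 beside 5 called lower.

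Of 44 other genes of PRC1, PRC2 and the enzymes that remove their marks, 43 were in the table, *Epop* under its older symbol *E130012A19Rik*, and *Scml2* was not analysed here. None was called higher by limma and 2 were called lower in *cast/cast* mice, beside 0.713% of genes outside the segment called in either direction, and 4 had an unadjusted *P* under 0.05, beside 950 of 13317 genes outside the segment. The median log2 fold change over the list was -0.04, beside -0.02 over all genes, with 18 above 0 and 25 below. One of the 43, *Csnk2b*, lies in the segment.

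The 2 called genes were *Pcgf5*, a paralog of *Bmi1* in PRC1, and *Foxk2*, a forkhead factor that joins the deubiquitinase Bap1. *Pcgf5* counts ran from 4.85 through a median of 8.26 to 46.7 in *b6/b6* mice and from 1.27 through 4.26 to 12.0 in *cast/cast* mice, close to the floor (log2 fold change -0.95, limma *P* = 0.00825, adjusted 0.469). *Foxk2* counts ran from 49.8 through 72.8 to 189.2 and from 31.2 through 51.9 to 72.1 (log2 fold change -0.52, limma *P* = 0.00891, adjusted 0.480). The genotypes overlapped for both genes, and the highest *b6/b6* values were those of mouse 6 for *Pcgf5* and mouse 12 for *Foxk2*. Without these 2 mice neither was called.

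Neither call was stable to single mice. *Pcgf5* was not called without *b6/b6* mouse 6, 7, 8, 9 or 12 or without *cast/cast* mouse 3, 4, 5, 6, 7, 9 or 12, with *P* up to 0.0174. *Foxk2* was not called without *b6/b6* mouse 3, 4, 6, 8, 10 or 12 or without *cast/cast* mouse 1, 3, 4, 5, 6, 7, 8, 11 or 12, with *P* up to 0.0187. The next genes by *P* did not pass, namely *Bap1*, the deubiquitinase of histone H2A, at 851 ± 231 and 604 ± 297 (log2 fold change -0.62, limma *P* = 0.0170, adjusted 0.543), the PRC1 gene *Auts2* (log2 fold change -0.44, limma *P* = 0.0425, adjusted 0.607) and *Csnk2a2*, a casein kinase subunit (-0.32, limma *P* = 0.0812, adjusted 0.625).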

How the data were processed

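The signal values that the authors deposited are normalized tag counts per gene and mouse. Tags were mapped by the authors to RefSeq mRNA of GRCm38 with a modified version of the SAGE software of the sequencer, and hits were scaled by a DESeq size factor per library. Columns of a comparison by the authors (means, a ratio, its log2 value and p-values, all deposited) were not used. Whole tag hits came back from 100% of the deposited values (tolerance 0.1 hit). The 13998 genes had mean normalized counts of 6.03 or more, so that a minimum mean of 5 removed none.

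All genes were fitted in limma 3.58.1 (R 4.3.3, empirical Bayes, intensity trend) without a covariate. The segment was taken as the first 46 Mb of Chr 17, and 251 genes had no position. Thresholds for a call came from the methods of the study. Members and lists were chosen with earlier results of these data known. Genes were named if they were members, called in a list or among its 5 lowest *P*, called or among the 2 nearest within 100 kb, or among the 3 most correlated with *Phf1* or *Ring1*, and some genes under this rule are not reported here. Libraries stood apart where their median Spearman correlation with the others was under 0.939. Alternatives were count models of the recovered hits (edgeR 4.0.16, DESeq2 1.42.0), other pseudocounts, minimum means and scalings, covariates, and leaving out libraries. The fits were tested on simulated data. Permutations used numpy 2.4.6, and ranks and t quantiles scipy 1.17.1, in Python 3.11.15.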

Additional observations from a re-analysis of the deposited data

How the results depend on the processing

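*Phf1* and *Ring1* were chosen on the genotype contrast, so that the counts of members past the thresholds are a description. They numbered 1 instead of 2 with rescaled libraries (*Ring1* log2 fold change 0.53) and 1 without the 2 lowest *b6/b6* libraries (0.49), and from 1 to 2 leaving out single mice. Over all genes, 208 calls became 391 with edgeR and 395 with DESeq2 on the recovered tag hits, 80 at an adjusted *P* of 0.05, 137 without the 2 lowest *b6/b6* libraries and 457 among the lower study numbers, and from 145 to 255 leaving out single mice. Rescaling shifted the median log2 fold change by -0.09. The 2 calls among other Polycomb genes became 1 with a pseudocount of 5, 1 with a minimum mean of 20 and 1 among the higher study numbers (*Fbrs*), and 0 at an adjusted *P* of 0.05, without the libraries that stood apart, with 2 principal components as covariates, without the 2 lowest *b6/b6* libraries and among the lower study numbers, and from 0 to 2 leaving out single mice.

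Uncalled members changed sign as follows. Among the lower study numbers the log2 fold changes were 0.10 for *Mtf2*, 0.10 for *Rnf2*, -0.18 for *Eed* and 0.32 for *Suz12*. With study number as a covariate they were 0.039 for *Rnf2* and 0.10 for *Suz12*. Without the libraries that stood apart *Ezh1* was at -0.11, and with 2 principal components *Ezh2* was at 0.032. Leaving out single mice gave *Ezh1* -0.057 to 0.29, *Rnf2* -0.11 to 0.0049 and *Suz12* -0.13 to 0.022. The cause was not tested.

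By *r*, intake correlations that passed numbered 1, and 3 with rescaled libraries, 0 without the libraries that stood apart, 0 without the 2 lowest *b6/b6* libraries and 0 with total kcal. With total kcal, *Ezh1* in *cast/cast* mice passed by rho (-0.80, permutation *P* = 0.00256, adjusted 0.0461) and not by *r* (-0.72, permutation *P* = 0.00802, adjusted 0.0810). Correlations within complexes that passed by *r* numbered 5, and 0 without the libraries that stood apart and 3 for residuals from the first principal component. Differing steps in level stayed within 11 to 12. No paired analysis was possible because replicate numbers were given in accession order. Principal components, single mice, study number sets and the 2 lowest *b6/b6* libraries were added after seeing the data. Genes at or under 3 tag hits in some mice, such as *Ezh2*, are limited by depth.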

Other observations

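Of 48 genes known as Polycomb targets in other tissues, with *Kiss1*, 10 were in the table. None of the 10 was called by limma, edgeR or DESeq2 (0 each), and 0 had an unadjusted limma *P* under 0.05. With 0.713% of genes called outside the segment, a count of 0 among 10 says nothing about the targets. Their median log2 fold change was 0.06, beside -0.02 over all genes. The signalling gene *Wnt6* was at 11.6 ± 6.58 and 12.2 ± 25.1, where *cast/cast* mouse 6 alone reached 91.4 (log2 fold change -0.62, limma *P* = 0.181, adjusted 0.692).

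The cell cycle inhibitors *Cdkn1c* (log2 fold change 0.30, limma *P* = 0.495, adjusted 0.853) and *Cdkn2b* (-0.21, limma *P* = 0.572, adjusted 0.880) did not pass, nor did *Nkx2-2*, a factor of the ventral neural tube (0.12, limma *P* = 0.597, adjusted 0.888). *Kiss1*, named for its place in the background above, was at 14.2 ± 10.9 and 13.2 ± 8.77 (log2 fold change 0.08, limma *P* = 0.889, adjusted 0.978).

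The genes outside the segment whose levels were most like *Phf1* across the 12 *b6/b6* mice were *Atp6v1b2*, a proton pump subunit, with *r* = 0.97, *Ampd2*, an AMP deaminase, with 0.97, and *Gclc*, a glutathione synthesis gene, with 0.96. Without *b6/b6* mice 6 and 12 these were 0.98, 0.95 and 0.93 over 10 mice. For *Ring1*, over residuals from the genotype means of 24 mice, they were *Fxyd7* (*r* = 0.87), *Polr2f* (0.86) and *Nit1* (0.83), and 0.79, 0.77 and 0.75 without those mice. The genes were picked for these values and share the libraries, so that the coefficients are a description and have no test.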
